A study of Mus musculus with 32 samples.

Results

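Ly6a and Ly6e are the 2 genes described here, of 21829 mouse genes counted in the stromal cell line EL08-1D2 with and without azacitidine. They were picked by name, with their difference between treated and untreated cells already known. That difference is therefore given as a description without a p-value, and nothing is inferred from it. The series holds 16 libraries from cells with azacitidine and 16 from cells without it, and n = 16 per group applies below unless another n is given. EL08-1D2 is a single mouse mesenchymal stromal line. Azacitidine resembles cytidine and, once in DNA, binds and depletes DNA methyltransferases. Dose and time are not given in the sources used here, and the labels do not say whether each library is a culture of its own. The p-values therefore cover no more than the spread among these libraries, which may be technical.

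Ly6a encodes Sca-1, and Ly6e encodes a protein also known as Sca-2 or TSA-1. Both are small proteins of the Ly6/uPAR family, whose members share a compact three-finger fold held by disulphide bonds, and both are tethered to the outer face of the cell membrane by a glycosylphosphatidylinositol (GPI) anchor. Sca-1 marks mouse blood stem cells and many mesenchymal progenitors. Ly6e is known to restrict the entry of coronaviruses and to bind syncytin-A, a fusion protein of the mouse placenta. Both genes are known to respond to interferon, whose receptors signal through kinases and transcription factors to response elements in promoters. Ifit1, which binds foreign RNA, is a widely used readout of that pathway and served as the yardstick here.

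The genes lie on chromosome 15 (mm10), Ly6e (ENSMUSG00000022587) on the plus strand from 74955051 to 74959905 and Ly6a (ENSMUSG00000075602) on the minus strand from 74994877 to 74998031, with 39.8 kb between their lower coordinates. No annotated gene overlapped either one. Of the 1297 different 50-base stretches in Ly6a transcripts 246 (19.0%) also occur in transcripts of other genes, 195 of them in Ly6c1 and 31 in Ly6i. Reads from those stretches could be split or shared, and how such reads were assigned is not given in the sources used here. Of 4184 stretches of Ly6e transcripts 0 were shared.

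Promoter sequences are shown for genes that bear on the interferon relation, namely Ifit1, then Ifitm3 and H2-T23, which stood among the 8 genes most alike in pattern to Ly6a and also to Ly6e, and Ly6c1, the gene most like Ly6a. The RefSeq promoter table (GRCm38.p6) was searched by symbol, and Ly6a and Ly6e are not in it. Each sequence covers 250 bases before to 50 after the annotated start, 5′ to 3′ on the strand of the gene, and capitals mark matches of GAAA, any 2 bases and GAAA again, the core of an interferon-stimulated response element, on either strand. Ifit1 is at chr19:34640639-34640938 on the plus strand, Ifitm3 at chr7:141010695-141010994 on the minus strand, H2-T23 at chr17:36032652-36032951 on the minus strand and Ly6c1 at chr15:75048788-75049087 on the minus strand.
Ifit1: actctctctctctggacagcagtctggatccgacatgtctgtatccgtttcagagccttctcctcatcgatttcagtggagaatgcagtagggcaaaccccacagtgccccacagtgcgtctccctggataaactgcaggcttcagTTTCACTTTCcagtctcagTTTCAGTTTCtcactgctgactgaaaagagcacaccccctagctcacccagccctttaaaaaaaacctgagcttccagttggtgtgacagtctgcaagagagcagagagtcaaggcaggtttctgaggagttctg
Ifitm3: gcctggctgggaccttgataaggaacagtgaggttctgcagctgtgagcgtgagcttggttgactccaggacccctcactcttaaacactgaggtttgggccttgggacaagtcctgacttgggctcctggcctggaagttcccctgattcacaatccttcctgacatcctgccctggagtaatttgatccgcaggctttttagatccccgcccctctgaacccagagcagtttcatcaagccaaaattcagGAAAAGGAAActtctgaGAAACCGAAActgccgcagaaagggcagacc
H2-T23: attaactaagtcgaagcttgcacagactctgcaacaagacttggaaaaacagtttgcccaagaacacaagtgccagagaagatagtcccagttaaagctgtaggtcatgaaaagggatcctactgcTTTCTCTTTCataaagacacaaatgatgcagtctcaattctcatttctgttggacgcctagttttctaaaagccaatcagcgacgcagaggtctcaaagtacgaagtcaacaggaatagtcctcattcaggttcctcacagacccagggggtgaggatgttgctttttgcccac
Ly6c1: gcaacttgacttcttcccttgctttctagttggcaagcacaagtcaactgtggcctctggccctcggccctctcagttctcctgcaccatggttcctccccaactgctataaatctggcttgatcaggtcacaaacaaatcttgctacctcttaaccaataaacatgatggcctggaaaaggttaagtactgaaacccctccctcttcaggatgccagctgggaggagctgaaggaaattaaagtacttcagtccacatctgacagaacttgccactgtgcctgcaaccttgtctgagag
Ifit1 and Ifitm3 hold 2 matches each, H2-T23 holds 1 and Ly6c1 holds 0 in these windows. At least 1 match occurs in 1131 (3.44%) of all 32851 promoters given. A second motif, TTCNNNGAA, also known from interferon-responsive promoters, was searched on both strands as well and occurs in 8.30% of promoters. Ifitm3 holds 1 match of it, which overlaps a match of the first motif, and the other 3 windows hold 0.

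Libraries with azacitidine held 1226861 to 5039721 UMIs (unique molecular identifiers, which count a cDNA molecule once) and libraries without it 818619 to 3210801. Levels are given as CPM, the UMIs of a gene divided by the effective library size, on the usual scale of that unit. Libraries with neighbouring replicate numbers (1 to 4, 5 to 8, 9 to 12 and 13 to 16, called runs here) resembled each other. Deviations from the group mean had an average correlation of 0.34 inside a run and -0.16 across runs with azacitidine, and of 0.08 and -0.10 without it. The labels do not say what a run is. Of 7 stromal markers 6 were clearly present, while Thy1 had 26 UMIs with azacitidine and 0 without. Their summed level ran from 5660 to 9460 CPM with and from 8390 to 11200 CPM without azacitidine, and Col1a1, Col1a2 and Col3a1 fell (edgeR, adjusted p = 0.0014, 0.0010 and 6.2e-09). Sca-1 is also known from blood stem cells and endothelium, and their defining markers were near 0. Ptprc, the leukocyte antigen CD45, had 4 UMIs in all libraries with azacitidine and 1 without, Pecam1 had 6 and 2, and Cdh5 had 8 and 1. The summed level of 5 blood markers nevertheless ran from 23.5 to 46.7 CPM with and from 14.6 to 32.9 CPM without azacitidine, carried by Cd53 and Cd68. That of 6 epithelial markers ran from 71.9 to 148 CPM with and from 2.92 to 9.9 CPM without, with keratins in the lead and Epcam at 1 and 0 UMIs, and that of 4 endothelial markers from 0 to 2.97 and from 0 to 1.05 CPM. The part of these shifts in the results below was not tested.

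Both genes stood higher with azacitidine, about 2-fold on average, but by very different amounts in different runs. Ly6a had 408.0, 619.6 and 1626.9 CPM (lowest, median and highest library) with azacitidine, against 315.7, 395.3 and 554.0 CPM without. Of the libraries with azacitidine 11 lay above every library without it and 5 overlapped them. Its mean was 778.1 ± 397.7 CPM with and 406.1 ± 84.1 CPM without azacitidine (SD), a log2 fold change of 0.94 (SE 0.18). In whole cultures, more RNA per cell and a larger share of cells that express the gene cannot be told apart.

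Ly6e had 907.1, 1058.0 and 2615.9 CPM in the lowest, median and highest library with azacitidine, against 536.6, 688.2 and 962.1 CPM without. Here 14 libraries with azacitidine lay above every library without it. The mean was 1389.7 ± 591.2 CPM with and 698.8 ± 140.1 CPM without azacitidine, a log2 fold change of 0.99 (SE 0.15). By this size Ly6e ranked 84 and Ly6a 87 among the 9344 tested genes. Both were among the 341 genes called higher by edgeR at an adjusted p under 0.05, which are 3.65% of those tested, beside 187 called lower. With scaling to spike-in RNA that split was 354 higher and 1 lower. The pair was chosen with this contrast known, so its place there is not a finding.

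The spread among treated libraries was wide, and counting error was a small part of it. The library with the fewest Ly6a UMIs with azacitidine still held 621 of them, for which counting alone gives a coefficient of variation of 4.0%, against 51.1% observed among the 16 libraries. For Ly6e the smallest number was 1160 UMIs, with 2.9% from counting and 42.5% observed. Without azacitidine the observed coefficients were 20.7% for Ly6a and 20.1% for Ly6e. In the edgeR fit the biological coefficient of variation was 35.0% for Ly6a and 29.7% for Ly6e, larger than that of 96.5% and 94.0% of the tested genes with at least 20 CPM, whose median was 13.4%.

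**Figure D1:**
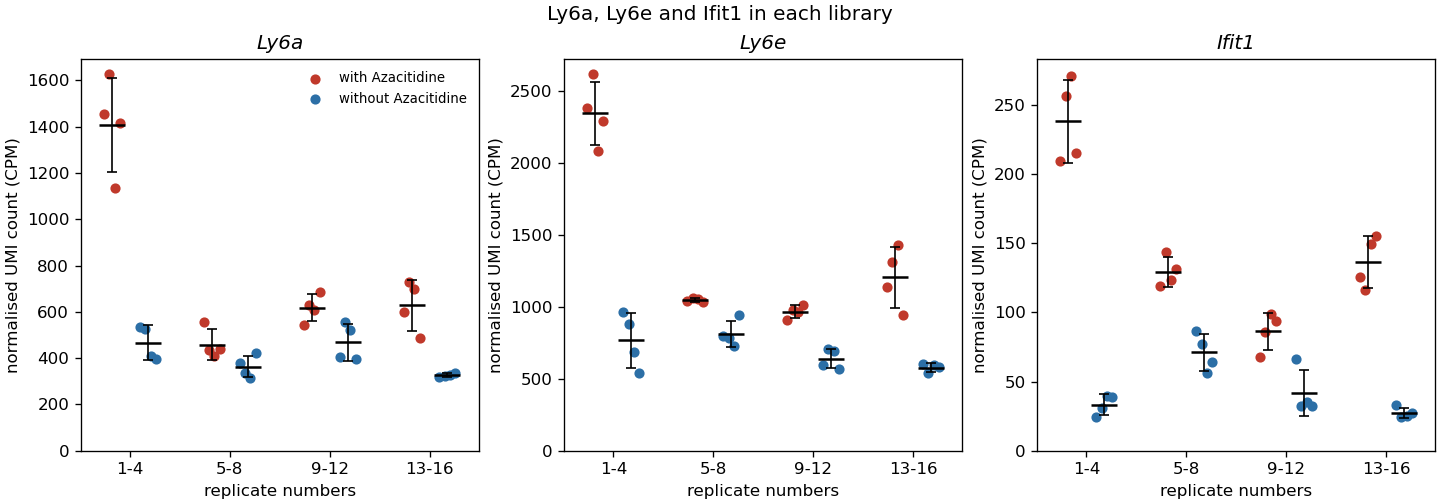
UMI counts after normalisation (CPM, axes linear and starting at 0) for Ly6a, Ly6e and Ifit1 in each library, arranged by runs of 4 replicate numbers, with azacitidine in red left of without azacitidine in blue. Points are libraries, wide bars are means and whiskers are 1 SD (n = 4). The 4 treated libraries of numbers 1 to 4 stand far above all others for Ly6a and Ly6e, while treated and untreated Ly6a points meet in numbers 5 to 8 and 9 to 12.

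Numbers 1 to 4 carried the highest treated levels of both genes. Ly6a stood at 1452.8, 1626.9, 1135.1 and 1417.0 CPM with azacitidine, against 533.8, 527.9, 408.3 and 394.8 CPM without. Ly6e stood at 2378.5, 2615.9, 2084.3 and 2289.6 CPM with, against 962.1, 879.9, 687.0 and 537.7 CPM without azacitidine. In this run no treated library came near an untreated one, and the mean log2 levels differed by 1.59 for Ly6a and 1.64 for Ly6e.

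In numbers 5 to 8 the groups lay much closer. Ly6a had 555.4, 433.1, 408.0 and 437.8 CPM with azacitidine, against 379.3, 337.5, 315.7 and 422.1 CPM without, and 1 treated library lay below the highest untreated one. Ly6e had 1039.1, 1061.8, 1054.2 and 1031.3 CPM with, against 793.3, 782.1, 730.0 and 943.2 CPM without azacitidine. The 4 treated values of Ly6e in this run were nearly equal and lay above all 4 untreated ones. The differences in mean log2 level were 0.33 for Ly6a and 0.37 for Ly6e.

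In numbers 9 to 12 the Ly6a groups again overlapped. Ly6a had 544.2, 631.1, 608.0 and 685.3 CPM with azacitidine, against 406.9, 554.0, 519.3 and 395.7 CPM without, again with 1 treated library below the highest untreated one. Ly6e had 907.1, 977.3, 966.1 and 1010.5 CPM with, against 597.2, 703.4, 689.4 and 566.2 CPM without azacitidine, and its groups did not overlap. The differences were 0.41 for Ly6a and 0.60 for Ly6e on the log2 scale.

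In numbers 13 to 16 both genes were clearly apart between the groups. Ly6a had 601.1, 730.5, 697.6 and 486.1 CPM with azacitidine, against 317.1, 322.2, 326.8 and 336.6 CPM without. Ly6e had 1134.7, 1309.5, 1431.0 and 944.8 CPM with, against 600.2, 536.6, 593.2 and 578.4 CPM without azacitidine. The untreated libraries were tightly grouped and the treated ones spread, with number 16 lowest for both genes. The log2 differences were 0.93 and 1.04.

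Ly6e was thus higher in all 4 treated libraries than in any untreated library of the same run, in each run, as were 58 of the tested genes (0.621%). For Ly6a this held in numbers 1 to 4 and 13 to 16, where 5.66% and 4.6% of the tested genes showed it, and not in numbers 5 to 8 and 9 to 12, where 5.9% and 3.52% did. Without numbers 1 to 4 the log2 fold change was 0.56 (SE 0.11) for Ly6a and 0.67 (SE 0.08) for Ly6e, so numbers 1 to 4 moved the value of Ly6a by over 1.5 times. With UMIs summed over each run and group, 4 sums against 4, the values were 0.92 (SE 0.34) and 0.97 (SE 0.28) and neither gene was among the 108 called of 12281 tested (0.879%).

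The log2 ratio of Ly6a to Ly6e varied between runs by more than between treatment groups. The log2 level of Ly6a minus that of Ly6e averaged -0.88 ± 0.24 with and -0.78 ± 0.28 without azacitidine (SD over all libraries of a group, which includes the differences between runs). By run it was -0.74 with and -0.69 without azacitidine in numbers 1 to 4, and -1.20 with and -1.16 without in numbers 5 to 8. In numbers 9 to 12 it was -0.65 with and -0.46 without, and in numbers 13 to 16 it was -0.94 with and -0.82 without. It was thus lower with azacitidine in all 4 runs. In numbers 9 to 12 and 13 to 16 the gap was larger than the SDs within the run, which were 0.07 with and 0.10 without in numbers 9 to 12 and 0.08 in each group in numbers 13 to 16. These differences follow from the contrast that chose the genes and were not tested.

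Whether the genes track the interferon response across libraries was asked within each treatment group, where the difference between the groups does not enter directly. The high treated levels in numbers 1 to 4 nevertheless enter both that difference and the correlations over all treated libraries. Those correlations are therefore not independent of the choice of the genes. Ifit1 had 68.0, 128.3 and 271.0 CPM in the lowest, median and highest library with azacitidine, against 24.2, 34.1 and 86.9 CPM without, and rose with azacitidine by 1.80 (SE 0.21) on the log2 scale (edgeR, adjusted p = 2.7e-07). By run its mean log2 level differed by 2.82, 0.87, 1.09 and 2.28, in the order of the replicate numbers. The order of the runs by size of difference was the same for Ifit1, Ly6a and Ly6e, with numbers 1 to 4 first, then 13 to 16, 9 to 12 and 5 to 8. For each choice of libraries below, 6 correlations were computed, 3 per group, and adjusted together by Benjamini-Hochberg, separately for Pearson's r and Spearman's rho. The choices were all libraries of a group, numbers 5 to 16, and all libraries with run means taken off, and further alternatives stand in the closing section. All tests are two-sided permutation tests.

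Over all 16 treated libraries, the choice made first, both genes were correlated with Ifit1. For Ly6a r was 0.69 (permutation p = 0.0035, adjusted p = 0.0071) and rho 0.42 (permutation p = 0.11, adjusted p = 0.16), and for Ly6e r was 0.86 (permutation p = 3e-05, adjusted p = 9e-05) and rho 0.74 (permutation p = 0.0014, adjusted p = 0.0082). Without the 2 libraries farthest from the median of Ifit1, numbers 2 and 3, r was 0.52 for Ly6a (permutation p = 0.055) and 0.79 for Ly6e (permutation p = 0.00054). The treated libraries of numbers 1 to 4 stand apart from the rest, with Ly6a at 1135.1 CPM or more against 730.5 CPM or less, so these values combine a gap between clusters with the relation inside them. Numbers 5 to 16 (n = 12) were therefore also taken alone, a choice planned with earlier results known and one that leaves out the highest values of the genes themselves.

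Among those 12 treated libraries the correlations with Ifit1 missed the threshold. For Ly6a r was -0.30 (permutation p = 0.34, adjusted p = 0.42) and rho -0.33 (permutation p = 0.30, adjusted p = 0.43). For Ly6e r was 0.49 (permutation p = 0.10, adjusted p = 0.30) and rho 0.43 (permutation p = 0.16, adjusted p = 0.43). Without the 2 libraries farthest from the median of Ifit1, r was -0.42 for Ly6a and 0.26 for Ly6e (n = 10).

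Over all 16 untreated libraries neither gene passed. Ly6a gave r = -0.15 (permutation p = 0.57, adjusted p = 0.57) and rho = -0.03 (permutation p = 0.91, adjusted p = 0.91), and Ly6e gave r = 0.32 and rho = 0.32 (permutation p = 0.22 and adjusted p = 0.27 for each). Leaving out the 2 libraries farthest from the median of Ifit1, numbers 5 and 6, gave r = -0.03 for Ly6a and 0.19 for Ly6e. In numbers 5 to 16 without azacitidine Ly6e was correlated with Ifit1 (r = 0.74, rho = 0.81, n = 12, permutation p = 0.0069 and 0.0025, adjusted p = 0.042 and 0.015), and r was 0.65 without the 2 farthest of these, while Ly6a gave r = 0.06 (permutation p = 0.86, adjusted p = 0.86). In numbers 1 and 2 without azacitidine Ly6e was high, at 962.1 and 879.9 CPM, while Ifit1 was low, at 24.2 and 30.9 CPM.

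Within runs no correlation with Ifit1 passed the threshold either. With the mean of each run taken off and libraries permuted within runs, Ly6a gave r = -0.21 with (permutation p = 0.48, adjusted p = 0.58) and -0.43 without azacitidine (permutation p = 0.22, adjusted p = 0.33). Ly6e gave r = -0.07 with (permutation p = 0.85, adjusted p = 0.85) and -0.40 without azacitidine (permutation p = 0.19, adjusted p = 0.33). Since libraries of a run resemble each other, p-values of correlations that ignore runs are too small.

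**Figure D2:**
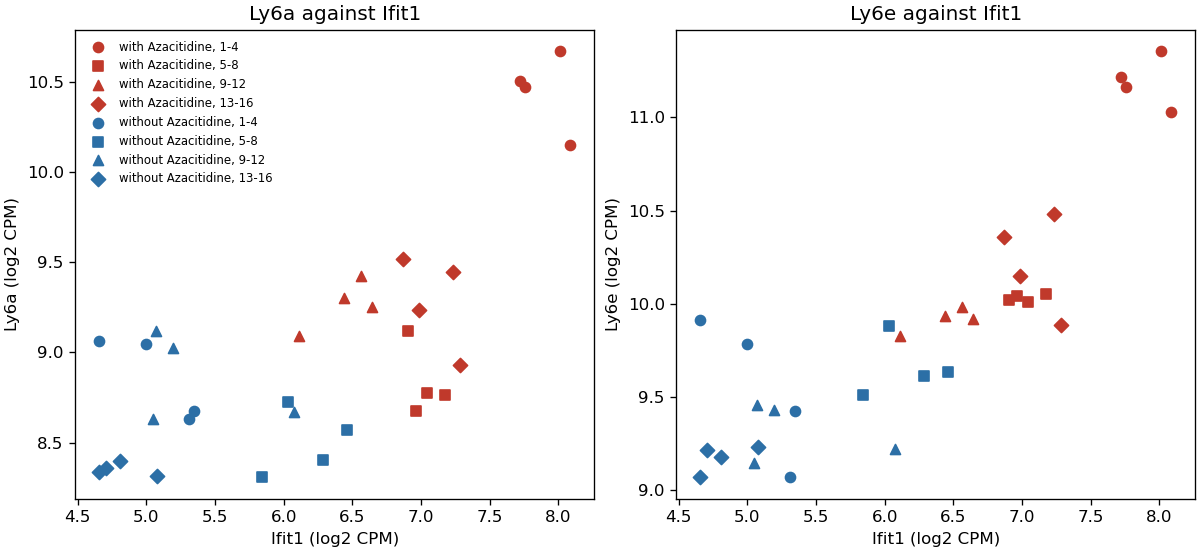
Log2 CPM of Ly6a (left) and Ly6e (right) against log2 CPM of Ifit1 in each library, with azacitidine in red and without in blue, and 1 marker shape per run of 4 replicate numbers. Points gather by run and group: the 4 treated libraries of numbers 1 to 4 sit alone at the top right, and for Ly6a the other 12 treated libraries show no upward trend (r = -0.30).

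Ly6a and Ly6e followed each other within runs in both groups. With run means taken off, r between them was 0.81 with (permutation within runs, p = 0.0013, adjusted p = 0.0038) and 0.86 without azacitidine (permutation p = 0.00021, adjusted p = 0.0013). Among all tested genes 99.6% with and 97.0% without azacitidine had a lower r with Ly6e, and the median over genes was 0.00 and -0.01. Within runs the levels also moved with the depth of the libraries. With run means taken off, r with the log2 total of UMIs was 0.44 for Ly6a and 0.62 for Ly6e with azacitidine, and 0.68 for Ly6a and 0.77 for Ly6e without it (permutation within runs, p = 0.14, 0.0051, 0.042 and 0.020, adjusted over these 4 p = 0.14, 0.020, 0.057 and 0.040). With the log2 total also taken off, r between Ly6a and Ly6e was 0.76 with and 0.72 without azacitidine (permutation within runs, p = 0.0034 and 0.013, adjusted p = 0.020 and 0.039). After thinning of every library to 1 depth it was 0.67 with and 0.87 without azacitidine (permutation within runs, p = 0.013 and 0.00049, adjusted p = 0.040 and 0.0029). Both of these alternatives were chosen after seeing the data.

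With run means left in, r between Ly6a and Ly6e over all 16 treated libraries was 0.93 (rho = 0.69, permutation p = 3e-05 and 0.0046, adjusted p = 9e-05 and 0.014). Over numbers 5 to 16 with azacitidine it was 0.44 (rho = 0.25, permutation p = 0.15 and 0.43, adjusted p = 0.30 and 0.43) and 0.58 without the 2 farthest from the median of Ly6a. Over the 16 untreated libraries it was 0.51 (rho = 0.47, permutation p = 0.046 and 0.069, adjusted p = 0.069 and 0.14), and 0.42 without numbers 1 and 10.

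**Figure D3:**
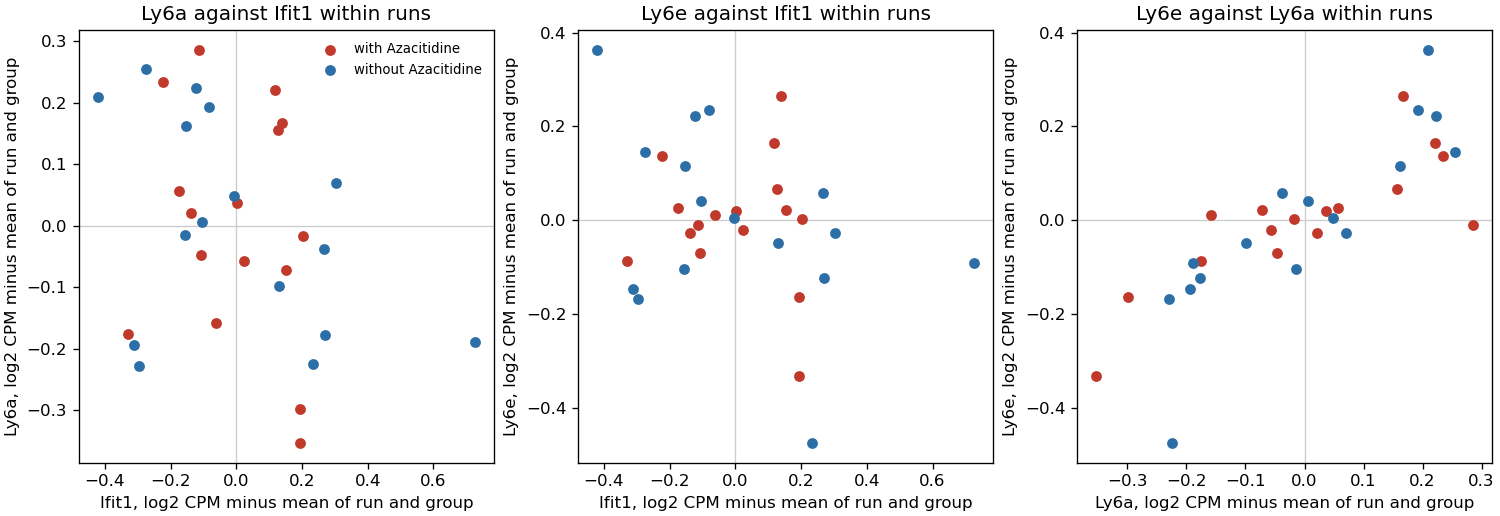
Deviations of log2 CPM from the mean of the same run and group, with azacitidine in red and without in blue (16 points each). Ly6a and Ly6e against Ifit1 show no upward trend (r between -0.43 and -0.07), while Ly6e against Ly6a rises in both groups (r = 0.81 with and 0.86 without azacitidine).

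The genes whose pattern over the 32 libraries was most like that of each member, after removal of the group means, were ranked among 6032 tested genes with at least 20 CPM. The values describe these libraries, which share runs, and carry no p-value. Ly6c1, a close relative on monocytes and endothelium, was most like Ly6a (r = 0.96), followed by the complement protease gene C1ra (0.93), the phospholipase gene Pla1a (0.90), the glutathione transferase gene Mgst1 (0.89), H2-T23, a non-classical class I gene (0.89), Tmem176b (0.89), Crtap, which helps collagen prolyl hydroxylation (0.88), and Ifitm3, an interferon-induced block to virus entry (0.87). Of these 8 genes 1, Ifitm3, was in the list of interferon-stimulated genes, which holds 52 of the 9344 tested genes. Ly6e itself came 23rd (r = 0.85) and Ifit1 came 1579th (r = 0.39).

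For Ly6e the closest genes were Ifitm3 (r = 0.97), the immunoproteasome gene Psmb10 (0.94), the protease inhibitor gene Timp2 (0.94), the galectin gene Lgals9 (0.93), Itm2b (0.93), the interferon-inducible gene Ifi202b (0.92), H2-T23 (0.92) and the prostacyclin synthase gene Ptgis (0.91). Ifitm3 and Lgals9 were in the interferon list, which does not hold Psmb10, Ifi202b or H2-T23 and so may undercount genes that respond to interferon. Ifit1 came 820th (r = 0.63). Ifitm3 and H2-T23 stood in both sets of 8. With means of runs also taken off, r with Ly6a ran from 0.48 for Mgst1 and 0.52 for Pla1a to 0.83 for Ifitm3 and 0.88 for Ly6c1 among its 8 genes. For Ly6e it ran from 0.61 for Ifi202b to 0.87 for Ifitm3 and Timp2, and Ifit1 then had r = -0.33 with Ly6a and -0.31 with Ly6e.

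Several of these genes were not called between the treatment groups. Crtap had 196.1 CPM with and 191.6 CPM without azacitidine, Mgst1 632.1 and 599.2, Itm2b 2422.3 and 2453.8 and Ptgis 120.7 and 117.5 CPM, none of them called (edgeR, adjusted p = 0.94, 0.79, 0.95 and 0.93). Ifitm3 rose to 1301.2 CPM with azacitidine, against 776.0 CPM without (edgeR, adjusted p = 0.00012), and H2-T23 to 138.9 against 83.9 CPM (edgeR, adjusted p = 0.021). H2-T23 was not called with limma-voom (adjusted p = 0.063), and its log2 fold change of 0.74 became 0.27 without numbers 1 to 4. Summed by run, neither gene passed (edgeR, adjusted p = 0.37 for Ifitm3 and 0.85 for H2-T23). Of the 14 genes in the 2 sets 12 are in the promoter table, 3 with a match of the response element core (Ifitm3, H2-T23 and Lgals9) and 4 with one of TTCNNNGAA. Over all 32851 promoters the shares were 3.44% and 8.30%, counted per promoter and not per gene. Tmem176b has 3 promoters there, and Ly6c1 and Mgst1 have 2 each.

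The rest of the Ly6/uPAR family was mostly silent. Of 47 other listed relatives 30 were in the table and 4 passed the filter on low counts, and all 4 rose with azacitidine, against 5.65% of all tested genes called in either direction. Ly6c1 rose to 221.7 ± 102.0 CPM with azacitidine, against 113.6 ± 29.4 CPM without, a log2 fold change of 0.97 (SE 0.18; edgeR, adjusted p = 0.00042). Ly6c2, its neighbour and near copy, rose to 59.96 ± 25.9 CPM with, against 29.0 ± 8.86 CPM without (log2 fold change 1.05, SE 0.19; edgeR, adjusted p = 0.00021). Plaur, the urokinase receptor, rose to 92.5 ± 22.7 CPM with, against 60.5 ± 13.3 CPM without azacitidine (0.60, SE 0.12; edgeR, adjusted p = 0.00082). Lynx1, a modulator of nicotinic receptors, rose to 34.7 ± 4.36 CPM with, against 27.8 ± 4.71 CPM without (0.31, SE 0.08; edgeR, adjusted p = 0.013). Summed by run, none of these 4 relatives passed (edgeR, adjusted p = 0.48, 0.34, 0.45 and 0.40). Lynx1 also missed the threshold with spike-in scaling, where its log2 fold change was larger and less certain at 0.59 (SE 0.21, edgeR, adjusted p = 0.086). Without numbers 1 to 4 it passed only narrowly, at 0.31 (SE 0.10, edgeR, adjusted p just under the threshold and 0.05 when rounded). Plaur stood at 0.94 with spike-in scaling.

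Ly6c1 and Ly6a differed by nearly the same amount in both groups. The log2 level of Ly6c1 minus that of Ly6a was -1.78 ± 0.12 with and -1.84 ± 0.17 without azacitidine (SD), and since the 2 share transcript stretches, the part of shared reads in it was not tested. With the UMIs of Ly6c1, Ly6c2 and Ly6i added to those of Ly6a, the log2 fold change was 0.95 (SE 0.18), as large as for Ly6a alone. By run Ly6c1 differed by 1.43, 0.65, 0.49 and 0.94 and Ly6c2 by 1.51, 0.70, 0.56 and 1.08, the highest in numbers 1 to 4 as for Ly6a. Plaur differed by 0.37, 0.94, 0.65 and 0.41, the highest in numbers 5 to 8, and Lynx1 by between 0.27 and 0.37 in the 4 runs. The differences between runs were not tested. Below the filter, Slurp1, a secreted family member, had 163 UMIs in all libraries with azacitidine and 43 without, Cd59a, an inhibitor of complement, had 255 and 128, and Ly6i had 60 and 19. The other relatives below the filter had 132 UMIs or fewer in a group.

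**Figure D4:**
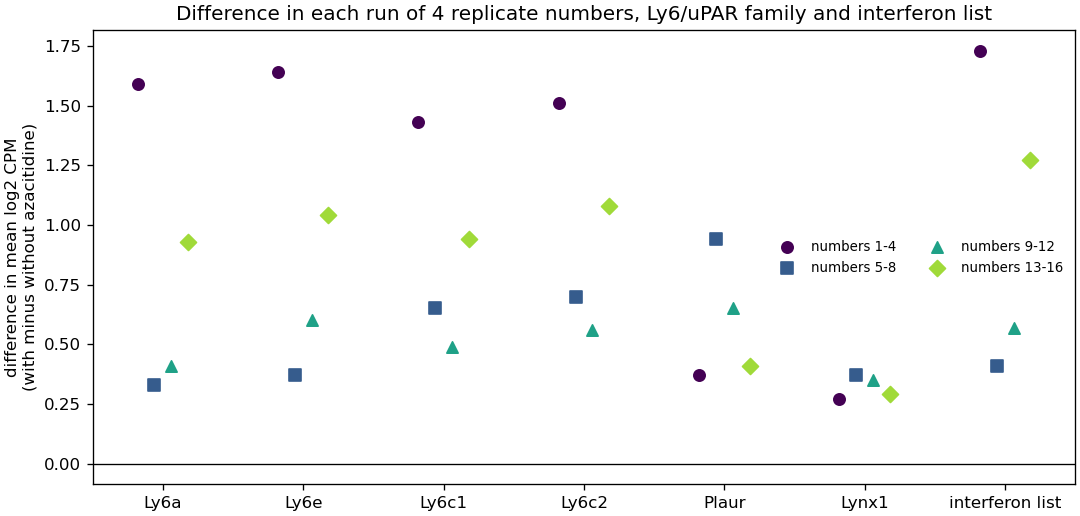
Difference in mean log2 CPM between libraries with and without azacitidine (with minus without) in each run of 4 replicate numbers, for Ly6a, Ly6e, the 4 other tested Ly6/uPAR genes and the mean of the interferon-stimulated list. Points are runs (4 against 4 libraries). Ly6a, Ly6e, Ly6c1, Ly6c2 and the interferon list are highest in numbers 1 to 4, Plaur is highest in numbers 5 to 8, and Lynx1 varies only between 0.27 and 0.37.

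The surroundings on chromosome 15 were covered by 24 other genes of the table whose lower coordinate lies within 500 kb of that of Ly6a or Ly6e. Of these 5 were tested and 3 rose, beside 3.65% of all tested genes. The 3 were Ly6c1, Ly6c2 and Lynx1, all of them already counted in the family above. Arc, an activity-regulated gene, had 8.66 ± 2.29 CPM with and 8.52 ± 3.52 CPM without azacitidine, and Jrk had 19.4 ± 4.80 and 17.7 ± 3.46 CPM, neither called (edgeR, adjusted p = 0.92 and 0.69). Ly6i, which lies between Ly6e and Ly6a, was below the filter.

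**Figure D5:**
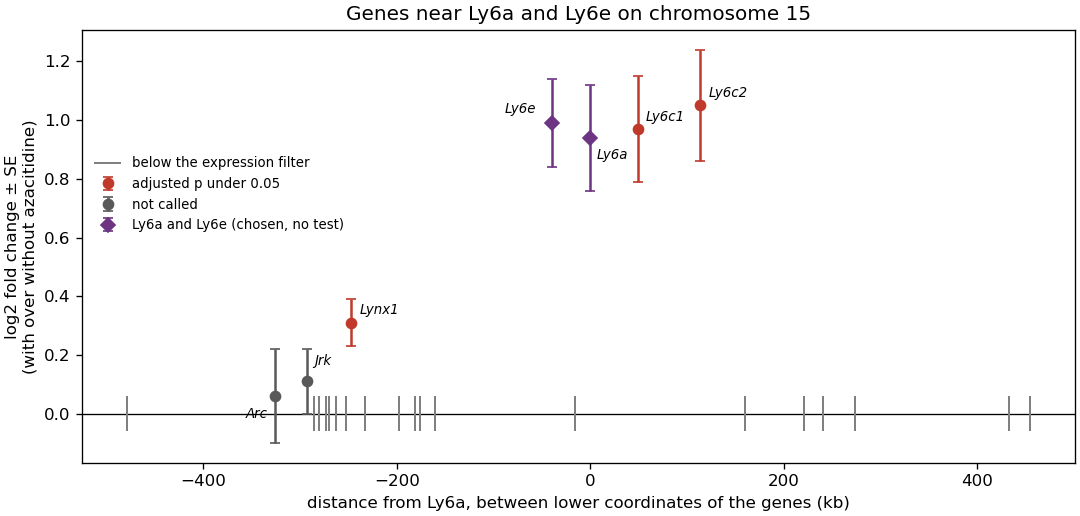
Log2 fold change with azacitidine over without (edgeR, bars are 1 SE) of the tested genes that start within 500 kb of Ly6a or Ly6e, by distance in kb from Ly6a, taken between the lower coordinates of the genes. Red points were called, grey points were not, purple diamonds are Ly6a and Ly6e, and ticks on the zero line mark genes below the filter. Ly6e, Ly6a, Ly6c1 and Ly6c2 lie between 0.94 and 1.05, Lynx1 at 0.31, and Jrk and Arc near 0.

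Genes that build the GPI anchor showed no call. Of 25 tested genes 0 passed in edgeR, DESeq2 or limma-voom, and each tool gave 1 gene an unadjusted p under 0.05. Of all tested genes 5.65% were called in edgeR, a share at which few calls would be expected among 25. Their log2 fold changes ran from -0.20 to 0.21 with a median of 0.01, beside 0.00 for all tested genes. The lowest was Pgap2, which remodels the lipid of the anchor, at 43.9 ± 4.99 CPM with and 50.6 ± 7.01 CPM without azacitidine (edgeR, adjusted p = 0.084). Other proteins that carry the anchor went both ways: of 18 tested genes 3 rose and 2 fell, beside 3.65% and 2.0% of all tested genes, with a median of 0.00. Plaur, already counted in the family above, was among the 3 that rose. Cdh13, T-cadherin, fell to 134.4 ± 26.9 CPM with, against 211.3 ± 29.9 CPM without azacitidine (edgeR, adjusted p = 1.2e-06). Bst2, the interferon-induced tether of budding viruses, rose to 7.71 CPM with, against 4.32 CPM without (log2 fold change 0.83, SE 0.18; edgeR, adjusted p = 0.0025), and Cd24a rose to 11.28 ± 2.29 against 8.02 ± 3.17 CPM (edgeR, adjusted p = 0.031). With 117 UMIs over all libraries without azacitidine, Bst2 passed the filter on low counts mainly through its treated libraries. With no filter it was called as well (edgeR, adjusted p = 0.0017). After thinning and without numbers 1 to 4 Bst2 fell below the filter and was not tested. By run its mean log2 level differed by 1.21, 0.25, 0.52 and 1.13. With spike-in scaling Cdh13 was not called, at -0.38 in place of -0.65 (edgeR, adjusted p = 0.23), and without numbers 1 to 4 Cd24a was not (0.14). Summed by run, none of the 3 passed (edgeR, adjusted p = 0.12 for Cdh13, 0.18 for Bst2 and 0.48 for Cd24a).

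Among surface markers by which stromal cells are sorted, as Sca-1 is, 5 of 15 tested genes rose and 0 fell, beside 3.65% of all tested genes called higher, with a median log2 fold change of 0.13. Ly6c1, already counted in the family above, was among the 5 that rose. Cd34, a sialomucin of progenitors, rose to 14.95 ± 4.46 CPM with, against 4.45 ± 2.59 CPM without azacitidine (log2 fold change 1.65, SE 0.21; edgeR, adjusted p = 4.6e-07). It also passed when UMIs were summed by run (edgeR, adjusted p = 0.0063). With 125 UMIs over all libraries without azacitidine, Cd34 passed the filter on low counts mainly through its treated libraries. With no filter it was called as well (edgeR, adjusted p = 5e-08). Cd44, the hyaluronan receptor, rose to 115.3 ± 12.7 CPM with, against 86.4 ± 5.87 CPM without (edgeR, adjusted p = 2.5e-07), and Cd47 rose to 196.1 ± 25.4 CPM with, against 169.3 ± 11.5 CPM without (edgeR, adjusted p = 0.011). Cd47, at a log2 fold change of 0.22 (SE 0.05), missed the threshold at 0.16 after thinning (edgeR, adjusted p = 0.20), at 0.15 without numbers 1 to 4 (0.10) and at 0.53 (SE 0.20) with spike-in scaling (0.12). Cd44 stood at 0.73 with spike-in scaling in place of 0.42, and summed by run neither Cd44 nor Cd47 passed (0.086 and 0.75). Pdgfra, a receptor often sorted together with Sca-1, had 61.5 ± 8.99 CPM with and 62.4 ± 18.2 CPM without azacitidine, without a call (edgeR, adjusted p = 1.00).

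Along the interferon pathway the receptors showed no call, while some signalling genes and most of the listed target genes rose. Interferon beta (Ifnb1) had 2 UMIs in all libraries with azacitidine and 0 without. The receptor chain Ifnar1 had 56.0 ± 8.01 CPM with and 62.5 ± 11.1 CPM without azacitidine, and Ifnar2 had 95.7 ± 38.6 and 88.2 ± 19.8 CPM (edgeR, adjusted p = 0.32 and 0.74). Of 21 tested signalling genes 5 rose (3.65% of all tested genes did) and 0 fell, with a median log2 fold change of 0.07. Irf9 rose to 85.8 ± 17.5 CPM with, against 52.3 ± 13.0 CPM without azacitidine, and Irf7 to 54.9 ± 29.2 CPM with, against 20.05 ± 8.58 CPM without (edgeR, adjusted p = 9.9e-06 and 4.9e-05). Summed by run, neither Irf9 nor Irf7 passed (edgeR, adjusted p = 0.24 and 0.31), and without numbers 1 to 4 the log2 fold change of Irf7 was 0.96 in place of 1.49.

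Of 52 tested interferon-stimulated genes 47 rose and 0 fell, with a median log2 fold change of 1.11. Of all tested genes 3.65% were called higher. Some listed genes were low without azacitidine, such as Slfn2 at 4.49 CPM against 13.04 CPM with it. Such genes passed the filter on low counts mainly through treated libraries. With no filter 55 of 66 listed genes were called, all of them higher. The list was made with earlier results of these data known. Psmb8, an immunoproteasome subunit, and the chemokine gene Ccl5 rose by 2.32 (SE 0.15) and 1.73 (SE 0.15) on the log2 scale, and Usp18, which removes ISG15, by 1.65 (SE 0.19) (edgeR, adjusted p = 5.8e-15, 8.7e-11 and 8.7e-08). Summed by run, 4 of 62 tested listed genes passed, beside 0.879% of all 12281 genes tested in that way. Among the 4 were Psmb8 and Ccl5 (edgeR, adjusted p = 0.00011 and 0.0070), while Usp18 and Ifit1 did not pass (0.081 and 0.094). Averaged over the list, log2 levels differed by 1.73, 0.41, 0.57 and 1.27 in the 4 runs, beside 1.59, 0.33, 0.41 and 0.93 for Ly6a and 1.64, 0.37, 0.60 and 1.04 for Ly6e.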

How the data were processed

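EL08-1D2 libraries were made from total RNA by a barcoding protocol with unique molecular identifiers and a transposase-based kit, per the labels' protocols. STAR 2.4.0, bedtools 2.17.0 and the build mm10 are listed in the submitters' processing notes. UMI collapsing, annotation and strand are not given in the sources used here. The deposited values are raw counts, whole UMIs per gene and library. The 68 ERCC spike-in lines (0.106% of UMIs) stayed out of library sizes and served for 1 alternative scaling. Of 21829 mouse genes 21506 had a symbol in GENCODE M21.

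The test was edgeR 4.0.16 (robust quasi-likelihood, TMM, default expression filter, two-sided, Benjamini-Hochberg over 9344 genes). This filter also keeps a gene that is expressed in either group alone. Log2 CPM used a prior count of 2. Permutation tests drew 100000 resamples. Members, lists and alternatives were chosen with earlier results of these data known. The text names called relatives and neighbours, up to 4 called genes of each other list by p, and the 8 genes most alike each member. Uncalled relatives and neighbours were named freely, and others (Pgap2, Pdgfra, Ifnb1, Ifnar1, Ifnar2 and the markers) were chosen after their values were seen. A gene that this rule names in the signalling list is not reported here. DESeq2 1.42.0, limma 3.58.1 (voom) and the scalings, filters, thinning and sample sets in the closing section were alternatives; summing Ly6a with its relatives and 2 depth corrections of the correlations were added after seeing the data. Intervals from counting cover counting error only. The test was checked on simulated data with 200 genes changed among 9254. It recovered 85.1% of those changed 1.5-fold, 94.0% of those changed 2-fold and 90.9% of those changed 4-fold, and 1.64% of its calls were false. The simulated libraries were independent and had no runs, so the share of false calls in the real libraries is not shown by it. Scripts ran in R 4.3.3 and Python 3.11.15.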

Additional observations from a re-analysis of the deposited data

Results flagged for a closer look

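Within each run of 4 replicate numbers, Ly6a, Ly6e and Ifit1 were screened for a library whose distance to its nearest neighbour made up most of the range of its group of 4. Of 24 such groups 1 held one, where chance alone gives about 1 in 20. Ifit1 in number 9 without azacitidine stood at 66.2 CPM, while the other 3 untreated libraries of that run lay between 32.1 and 35.5 CPM. In the same library Ly6a had 406.9 CPM and Ly6e had 597.2 CPM, inside the ranges of the other 3.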

How the results depend on the processing

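Under all alternatives run, the log2 fold change stayed positive, from 0.56 to 1.23 for Ly6a and from 0.67 to 1.28 for Ly6e. The lowest values came without numbers 1 to 4 and the highest with spike-in scaling, which raised the median of all genes to 0.31. The labels do not say whether equal replicate numbers pair the libraries, and the values do not settle it. Of 16 pairs 12 had a correlation of deviations over 0.1, the lowest was -0.29 and the highest 0.83. Of 16 treated libraries 3 correlated best with their own number. With the replicate block 518 genes were called higher and 379 lower, in place of 341 and 187, and Ly6a and Ly6e stood at 0.82 (SE 0.14) and 0.91 (SE 0.13). A run term gave 563 higher and 430 lower, thinning to 818619 UMIs 163 and 92, sums over runs 105 and 3, no filter 718 higher, and spike-in scaling 1 lower. With sums over runs the genes called fell to 0 in the Ly6/uPAR list, 0 among the neighbours, 0 of the other GPI-anchored proteins, 0 in interferon signalling, 1 stromal surface marker and 4 interferon-stimulated genes. Thinning left 28 of 35 interferon-stimulated genes, 3 GPI-anchored proteins and 2 surface markers. Spike-in scaling called 3 genes in each of the 2 surface lists, and no filter 8 in each. Without numbers 1 to 4, 3 GPI-anchored proteins were called. For GPI anchor synthesis the block, the run term, no filter and leaving out numbers 1 to 4 each called 1 gene.

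Over all 16 treated libraries r with Ifit1 was 0.69 for Ly6a and 0.86 for Ly6e, and between Ly6a and Ly6e 0.93 (permutation, adjusted p = 0.0071, 9e-05 and 9e-05). With the interferon list in place of Ifit1, r was 0.80 for Ly6a and 0.95 for Ly6e (adjusted p = 0.00076 and 4e-05). Without numbers 1 to 4 r was -0.30, 0.49 and 0.44, and with run means taken off r with Ifit1 was -0.21 and -0.07. Without the 2 libraries farthest from the median of Ifit1, r for Ly6a was 0.52 (adjusted p = 0.11). In untreated libraries r of Ly6a with Ifit1 was 0.06 without numbers 1 to 4 and 0.02 with the interferon list in place of Ifit1. That of Ly6e was 0.74 without numbers 1 to 4, 0.65 with the interferon list (adjusted p = 0.0087) and -0.40 with run means taken off. Between Ly6a and Ly6e it was 0.64 after thinning (adjusted p = 0.013) and 0.86 with run means taken off. With run means taken off after thinning, r with Ifit1 with azacitidine was -0.06 for Ly6a and -0.04 for Ly6e, that of Ly6e without azacitidine was -0.31, and r between Ly6a and Ly6e without azacitidine was 0.87. With run means and log2 total taken off, r with Ifit1 with azacitidine was -0.08 for Ly6a and 0.17 for Ly6e, and r between Ly6a and Ly6e without azacitidine was 0.72. Without azacitidine r with Ifit1 was then -0.03 for Ly6a and 0.13 for Ly6e, in place of -0.43 and -0.40 with run means alone taken off. The causes of these shifts were not tested.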
